A study of Homo sapiens with 3 samples.

Results

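The genes of glycolysis and of the response to low oxygen were followed in KYSE140, an established human cell line derived from esophageal squamous carcinoma, after small interfering RNA (siRNA) against the homeobox transcription factor DLX5. They are 35 of the 17219 genes with a value in the deposited table, taken by gene symbol from a list, and all 35 symbols were found. By role, 17 are enzymes of glycolysis with the glucose transporter SLC2A1, 4 set the flux into or out of glycolysis (PFKFB3, PFKFB4, PDK1 and SLC16A3), and 14 are other genes of the hypoxia response. The study had 3 samples of total RNA, 1 labelled as negative control and 1 for each of 2 siRNAs against DLX5, here called siRNA1 and siRNA2. All were grown in RPMI1640 with fetal bovine serum. The labels give no oxygen level and no time after transfection, the model is a single line, and nothing says that separate cultures were made. The series' design text mentions triplicates, which differs from the 2 columns per sample found here. Levels are in FPKM, read fragments per unit of transcript length and of library size. Each sample has 2 such replicate columns; their mean entered as n = 1 value per sample, and each SD below is over the 2 columns, which may be technical.

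Glycolysis splits glucose into pyruvate in the cytosol, and lactate dehydrogenase turns pyruvate into lactate, which leaves the cell through monocarboxylate transporters. Tumor cells often run this pathway fast even when oxygen is present. The transcription factor HIF-1, made of HIF1A and ARNT, raises many of these genes when oxygen is short; with oxygen, the prolyl hydroxylases EGLN1, EGLN2 and EGLN3 mark HIF1A protein for VHL-dependent breakdown. HIF1A is thus controlled largely at the protein level, which RNA sequencing does not measure.

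HIF-1 binds DNA at a short core written ACGTG or GCGTG, and promoters of the genes whose values are described below are shown with that core. RefSeq windows (build GRCh38.p14, 300 bases that span an annotated start) were matched by gene ID for 32 of the 35 genes; NDRG1, BNIP3L and VEGFA are named only. CA9, a surface carbonic anhydrase widely used as a hypoxia marker, has 1 ACGTG core in its window (chr9:35673678-35673977, plus strand), read here on the opposite strand as CACGT. The letters of each ACGTG or CACGT are in capitals, also where a stretch cuts one short, as at the end of that of LDHA.
CA9: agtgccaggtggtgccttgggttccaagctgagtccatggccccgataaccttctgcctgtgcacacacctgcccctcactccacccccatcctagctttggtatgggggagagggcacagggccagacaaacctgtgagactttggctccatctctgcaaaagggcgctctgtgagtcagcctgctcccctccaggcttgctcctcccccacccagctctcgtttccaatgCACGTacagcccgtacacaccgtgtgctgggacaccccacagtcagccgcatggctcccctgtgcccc

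Windows of 30 bases, each centered on 1 ACGTG core, follow for 6 other genes, on the strand of the gene. They were chosen to set genes that read lower with both siRNAs (SLC16A3, HK2, LDHA and BNIP3) beside PGK1 and GAPDH, which read close to the control. HK2, LDHA and PGK1 have more ACGTG cores in their promoter windows than are shown, and GCGTG is left in lower case. Several of the cores are part of CACGTG, which is also the site of MYC and other E-box factors.
SLC16A3 (chr17:82228974-82229003): ACGTGcgcgggggACGTGccgcgccagcga
HK2 (chr2:74834066-74834095): caatgggcgtgcgCACGTcactgatccgga
LDHA (chr11:18394464-18394493): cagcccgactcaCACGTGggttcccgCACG
BNIP3 (chr10:131982040-131982069): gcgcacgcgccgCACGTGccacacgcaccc
PGK1 (chrX:78104052-78104081): caaacggaagccgCACGTctcactagtacc
GAPDH (chr12:6535171-6535200): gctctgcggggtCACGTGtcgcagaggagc

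ACGTG, searched on both strands, was in 24 of 60 windows of these genes (40%) and in 25.4% of the 14579 windows of all genes tested. CACGTG was in 8 of the 60 windows, against 9.43%. The other form of the core, GCGTG, also searched on both strands, was in 24 of the 60 windows, against 48.7%. By gene, at least 1 window with ACGTG was found for 11 of 17 glycolytic genes, 3 of 4 flux regulators and 6 of 11 other hypoxia genes. That was 20 of 32 in all (62.5%), against 32.6% of the 9952 genes tested that have a window. For GCGTG the shares by gene were 59.4% and 58.8%, and for either form 90.6% and 70.5%. More windows per gene raise such a share. These genes have 60 windows for 32 genes, and all genes tested 14579 for 9952. HIF1A, SLC2A1, PKM, PFKL, ADM, EGLN3, HK1, ENO1, KDM3A, P4HA2, PFKFB4 and PGAM1 had no ACGTG in these windows. Of them, only EGLN3, P4HA2 and PGAM1 had no GCGTG either. Several windows of 1 gene can overlap. A match describes letters only and is not a measured binding site.

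The targeted gene was lower in both samples labelled as knockdowns: DLX5 read 13.0 ± 0.0990 FPKM in the control, 3.63 ± 0.0283 with siRNA1 and 3.25 ± 0.0283 with siRNA2 (limma adjusted p = 0.0210). Depth, estimated from the spacing of low FPKM values, was 17150000 to 18700000 reads for each of the 4 columns used, where between 88.6% and 95.1% of those values lay within 0.2 of a whole read. All 8 squamous markers checked were present, at 41.6 to 3127 FPKM in the control, and their summed level was 7431 FPKM in the control, 3316 with siRNA1 and 3360 with siRNA2. KRT5, KRT6A, SFN and KRT14, which fell, carry that sum. SOX2 read 212 FPKM in the control, 272 and 277, TP63 92.1, 90.6 and 79.4, DSC3 46.7, 35.8 and 30.01, and DSG3 41.6, 46.9 and 32.3. The 4 retinal markers, checked because the series' design text speaks of retina, stayed at or below 1.15 FPKM. Fibroblast markers summed to 15.9, 8.87 and 7.63 FPKM, nearly all of it COL1A1. Immune markers summed to 7.66, 4.30 and 4.44 FPKM, of which CD68 gave 6.26 in the control; CD3E has no value. Endothelial markers summed to 0.565 FPKM or less. These sums move with several genes below, and their part in those results was not tested. In bulk RNA, fewer cells of a type and less RNA per cell cannot be told apart.

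Of the 34 genes that passed the filter of 1 FPKM in at least 1 sample, 1 rose (PFKL) and 1 fell (NDRG1). The test was limma on log2(FPKM + 1), control against both siRNA samples, with a Benjamini-Hochberg threshold of 0.05 over 12078 genes. The background was 1.42% of genes higher and 1.67% lower, 3.09% in all, so the share of these genes called was near that of all genes. CA9 did not pass the filter. At an unadjusted p under 0.05, 11 of the 34 were lower and 1 higher, against a background of 10.1% and 9.45%. At an adjusted p under 0.10, 7 were lower and 1 higher, against 3.87% and 3.02%. The test rests on 1 residual degree of freedom, on the difference between the siRNA samples, and on 1 control assumed to vary like them. To this the fit adds a variance prior over all genes worth 5.16 degrees of freedom. Most of the variance behind each p-value is thus borrowed from other genes. The PFKL and NDRG1 calls were lost without the filter (limma adjusted p = 0.320 for both) and with quantile normalization (adjusted p = 0.0750 and 0.0738). Calls over all genes were lost as well. Without the filter 0 of 17219 genes were called. With quantile normalization 12 were higher and 10 lower, against 171 and 202 in the main run.

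By direction alone, 23 of the 34 read lower than the control with both siRNAs and 5 higher, while 36.0% of all genes tested read lower with both and 41.3% higher. On the log2(FPKM + 1) scale their median difference from the control was -0.27 for siRNA1 and -0.21 for siRNA2, and that of all genes 0.03 and 0.01. The glycolytic genes had medians of -0.17 and -0.11, the other hypoxia genes -0.30 and -0.25, and the 4 flux regulators -0.24 and -0.43. Lower with both were 12 of the 17 glycolytic genes, 3 of the 4 flux regulators and 8 of the 13 other hypoxia genes tested. Both siRNAs are set against the same control, so a low or high control value moves both comparisons together. The members were chosen with earlier results of these data known, which can by itself move these counts and medians. In 20 of the 34 genes all siRNA columns lay below both control columns and in 3 above, against 26.8% and 31.0% of all genes.

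**Figure D1:**
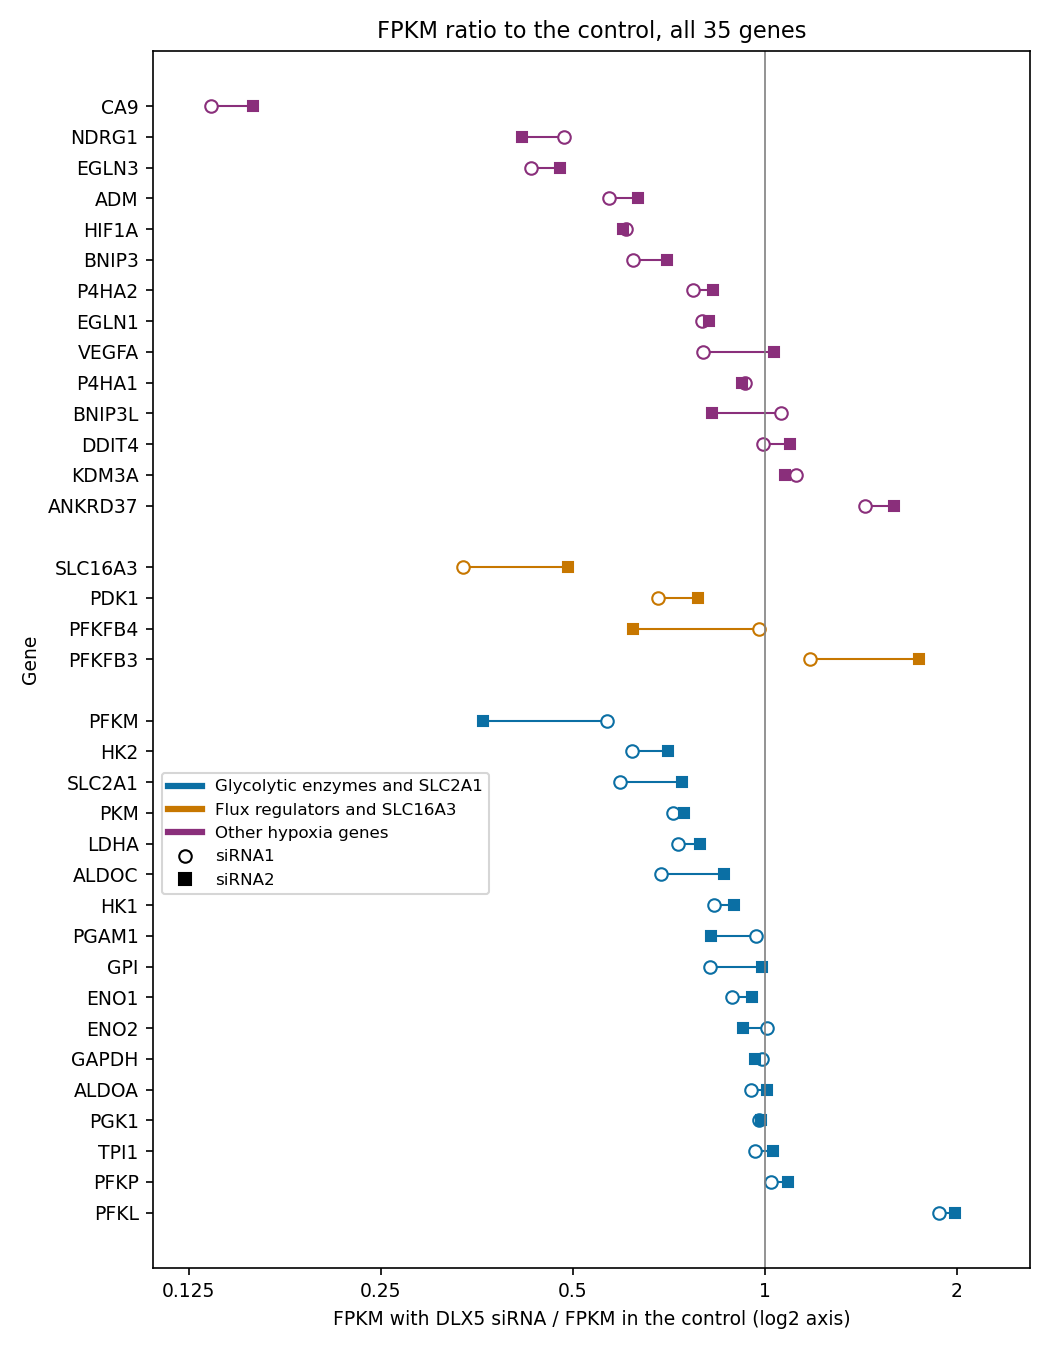
FPKM with each siRNA divided by FPKM in the control (log2 axis; open circles siRNA1, squares siRNA2) for all 35 genes in 3 groups of color, with no error bars. CA9, NDRG1, EGLN3, SLC16A3 and PFKM lie farthest left, PFKL lies at 1.87 and 1.99, and GAPDH, PGK1, TPI1 and ALDOA lie near 1.

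The 17 glycolytic genes differed among themselves. With both siRNAs 5 of them (SLC2A1, HK2, PFKM, PKM and LDHA) read at least 20% below the control, PFKL at least 25% above it, and the other 11 closer to it with 1 siRNA or both. SLC2A1, the main glucose transporter of many tumor cells, read 55.0 ± 0.502 FPKM in the control, 32.6 ± 0.735 with siRNA1 and 40.7 ± 0.325 with siRNA2. The siRNA columns all lay below the control columns, yet the difference missed the threshold (log2 fold change -0.58 ± 0.18 SE, adjusted p = 0.155). HK2, the inducible hexokinase that traps glucose as its phosphate, read 16.0 ± 0.643 FPKM in the control, 9.90 ± 0.615 with siRNA1 and 11.3 ± 0.191 with siRNA2 (adjusted p = 0.158). The ubiquitous hexokinase HK1 read 35.6 FPKM, 29.5 and 31.8. HK2 thus made up 31.0% of the summed HK1 and HK2 FPKM in the control, 25.1% with siRNA1 and 26.2% with siRNA2. GPI, the next enzyme, separated the siRNAs: it read 137 FPKM in the control, 112 with siRNA1 and 136 with siRNA2.

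Phosphofructokinase, the committed step of glycolysis, is built from 3 subunits, and these differed from the control in opposite directions while their sum stayed near it. PFKL, the liver-type subunit (Entrez gene 5211, chromosome 21, 45719917 to 45747264, plus strand, hg19), rose from 21.7 ± 0.113 FPKM in the control to 40.6 ± 2.94 with siRNA1 and 43.1 ± 0.573 with siRNA2. That was 1.87-fold and 1.99-fold higher (log2 fold change 0.92 ± 0.15 SE, adjusted p = 0.0385), and PFKL was the only one of the 34 genes at least 1.5-fold higher with both, on the log2(FPKM + 1) scale where 3.25% of all genes were. PFKM, the muscle-type subunit, read 39.6 ± 2.23 FPKM in the control, 22.4 ± 0.764 with siRNA1 and 14.3 ± 1.12 with siRNA2. Its ratio was the farthest from 1 of the glycolytic genes with siRNA2, at 2.77-fold lower, against 1.77-fold with siRNA1, and the spread between the siRNAs left it short of the threshold (log2 fold change -1.10 ± 0.26 SE, adjusted p = 0.0924). PFKP, the platelet-type subunit and the most abundant, read 157 FPKM in the control, 160 and 170. The sum of the 3 was 218 ± 5.97 FPKM in the control, 223 ± 0.0566 with siRNA1 and 227 ± 1.33 with siRNA2. Within it, PFKL went from 9.95% to 18.2% and 18.9%, and PFKM from 18.2% to 10.1% and 6.29%.

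**Figure D2:**
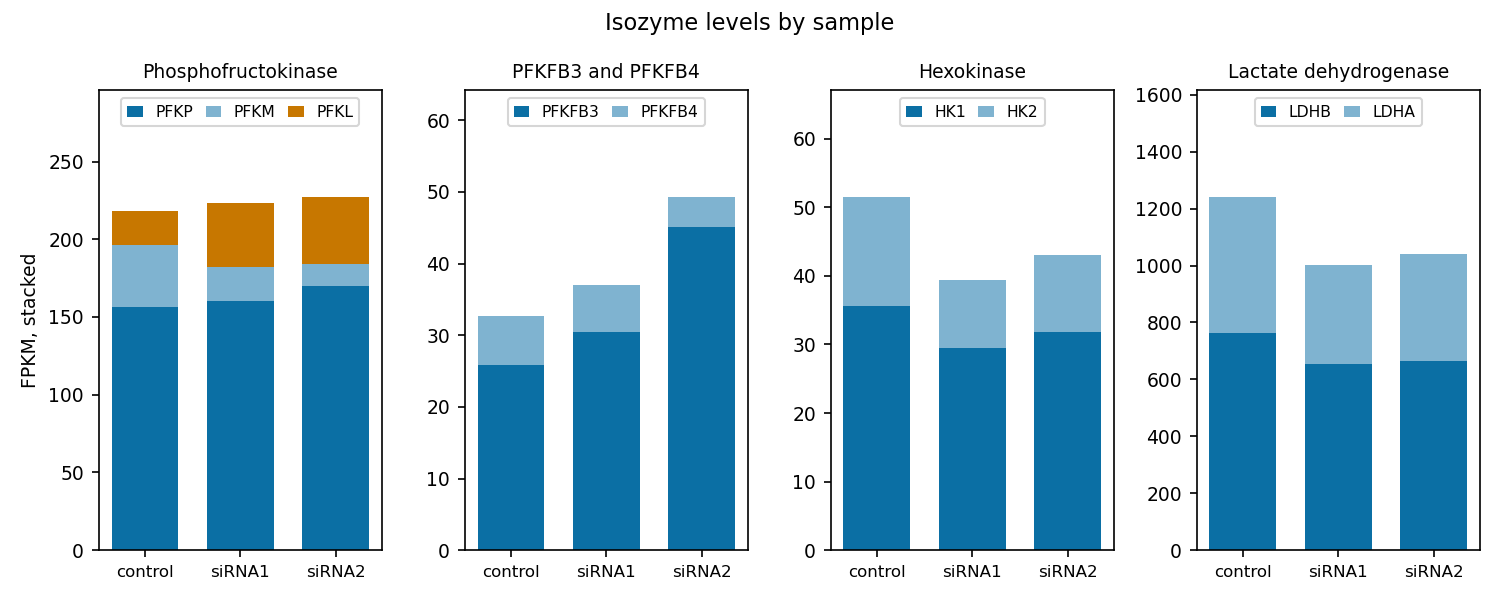
Stacked FPKM by sample for the subunits of phosphofructokinase, for PFKFB3 with PFKFB4, for hexokinases HK1 and HK2, and for lactate dehydrogenases LDHA and LDHB (bars are sample means, n = 1 each, no error bars; FPKM is per transcript length). The phosphofructokinase bars are 218, 223 and 227 FPKM tall, with a larger PFKL and a smaller PFKM part in both siRNA samples.

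Most enzymes between phosphofructokinase and pyruvate kinase read near the control. GAPDH, often used as a reference gene, had the highest FPKM of all genes in the control and read 3501 ± 22.0 FPKM there, 3464 ± 15.05 with siRNA1 and 3377 ± 88.9 with siRNA2 (log2 fold change -0.03 ± 0.10 SE, adjusted p = 0.887). The aldolase ALDOA read 716, 682 and 721 FPKM, the triosephosphate isomerase TPI1 625, 603 and 642, and the phosphoglycerate kinase PGK1 144, 141 and 142. The enolase ENO1 read 1179, 1046 and 1126 FPKM. The mutase PGAM1 read 301 FPKM in the control, 292 with siRNA1 and 248 with siRNA2. Of the 10 glycolytic genes above 100 FPKM in the control, 5 stayed within 10% of it with both siRNAs. The minor isozymes ALDOC (3.96, 2.71 and 3.41 FPKM) and ENO2 (30.8, 31.0 and 28.5 FPKM) contributed at most 0.549% of aldolase and 2.88% of enolase FPKM.

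The enzymes that make pyruvate and lactate read lower with both siRNAs. PKM, pyruvate kinase, read 1364 ± 4.71 FPKM in the control, 980.2 ± 19.8 with siRNA1 and 1018 ± 12.2 with siRNA2 (log2 fold change -0.45 ± 0.11 SE, adjusted p = 0.0924). LDHA, which makes lactate, read 478 ± 8.12 FPKM in the control, 350.1 ± 20.8 with siRNA1 and 378 ± 2.84 with siRNA2 (log2 fold change -0.39 ± 0.12 SE, adjusted p = 0.152). For both genes every siRNA column was below both control columns. LDHB, the other subunit of the same enzyme and not one of the 35, read 764, 653 and 664 FPKM (adjusted p = 0.365), so LDHA was 38.5% of their sum in the control, 34.9% with siRNA1 and 36.3% with siRNA2. Summed over the 17 genes, glycolytic FPKM was 8805 ± 76.2 in the control, 7999 ± 59.2 with siRNA1 and 8131 ± 141 with siRNA2. This was 2.06%, 1.85% and 1.91% of the FPKM of all genes, a sum that the few most abundant enzymes set. Many of these enzymes have pseudogenes, whose reads can be shared with the gene. GENCODE v29 names 62 of any type for GAPDH, 13 for PGAM1, 6 for LDHA, 5 for PKM, and 4 each for ENO1 and TPI1. Their single levels are uncertain to that extent.

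The 4 genes that steer flux differed in direction, and none passed the test. At an unadjusted p under 0.05, 1 was lower and 0 higher, against 10.1% and 9.45% of all genes tested. SLC16A3, the monocarboxylate transporter MCT4 that exports lactate, read 8.35 ± 0.566 FPKM in the control, 2.81 ± 0.191 with siRNA1 and 4.11 ± 0.728 with siRNA2. It was 2.98-fold and 2.03-fold lower and just missed the threshold (log2 fold change -1.09 ± 0.23 SE, adjusted p = 0.0672). SLC16A1, a transporter of the same family from the list of other glycolysis genes, was more abundant. It read 71.8 FPKM in the control, 54.7 with siRNA1 and 58.0 with siRNA2, 1.31-fold and 1.24-fold lower (limma adjusted p = 0.259). PDK1, a kinase that blocks pyruvate dehydrogenase and so keeps pyruvate from the mitochondria, read 5.03 ± 0.389 FPKM, 3.42 ± 0.191 and 3.94 ± 0.0636 (adjusted p = 0.343). PFKFB3 and PFKFB4 make and break down fructose-2,6-bisphosphate, the main activator of phosphofructokinase, and they read on opposite sides of the control with siRNA2. PFKFB3 read 25.9 ± 1.39 FPKM in the control, 30.4 ± 1.80 with siRNA1 and 45.2 ± 0.12 with siRNA2 (adjusted p = 0.333). PFKFB4 read 6.75 ± 0.332 FPKM, 6.61 ± 0.552 and 4.20 ± 0.530 (adjusted p = 0.587). Both PFKFB3 columns of each siRNA lay above the control columns, farther with siRNA2, while the PFKFB4 columns of siRNA1 overlapped the control and those of siRNA2 lay below it.

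Of the 14 other hypoxia genes, NDRG1, EGLN3, CA9, ADM, HIF1A and BNIP3 read at least 20% below the control with both siRNAs, and ANKRD37 at least 25% above it. NDRG1, a stress and hypoxia gene (Entrez gene 10397, chromosome 8, 134249414 to 134309547, minus strand, hg19), fell from 17.5 ± 0.0424 FPKM in the control to 8.47 ± 0.346 with siRNA1 and 7.28 ± 0.361 with siRNA2 (2.06-fold and 2.40-fold lower; log2 fold change -1.06 ± 0.18 SE, adjusted p = 0.0407). HIF1A itself (Entrez gene 3091, chromosome 14, 62162119 to 62214977, plus strand, hg19) read 82.3 ± 0.990 FPKM in the control, 49.9 ± 3.73 with siRNA1 and 49.3 ± 1.53 with siRNA2. Its difference was almost the same with both siRNAs, 1.65-fold and 1.67-fold lower, and lay just outside the threshold (log2 fold change -0.72 ± 0.14 SE, adjusted p = 0.0572). ADM, the vasodilator peptide adrenomedullin, read 43.9 ± 2.27, 25 ± 0.778 and 27.8 ± 0.714 FPKM (adjusted p = 0.0766). BNIP3, a mitochondrial protein that triggers mitophagy, read 28.0 ± 0.615, 17.4 ± 1.07 and 19.7 ± 2.24 FPKM (adjusted p = 0.135), a level made uncertain by 39 named pseudogenes. In each of these genes the siRNA columns lay below both control columns.

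The lowest members rest on few reads. CA9 read 0.665 ± 0.0495 FPKM in the control, 0.0900 ± 0.0283 with siRNA1 and 0.105 ± 0.0495 with siRNA2. At the estimated depth this is about 36 reads against 5 and 6 over both columns, a 7.2-fold and 6-fold lower count with exact 95% intervals of 2.82 to 23.5 and 2.50 to 17.4 that cover counting error only. EGLN3, an oxygen sensor that HIF itself induces, read 2.21 ± 0.368 FPKM, 0.95 ± 0.113 and 1.05 ± 0.0212 (2.33-fold and 2.09-fold lower; adjusted p = 0.0984). ANKRD37 read 1.29 ± 0.438 FPKM in the control, 1.85 ± 0.608 and 2.06 ± 0.0354 (adjusted p = 0.320), and its columns overlapped between control and siRNA1.

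**Figure D3:**
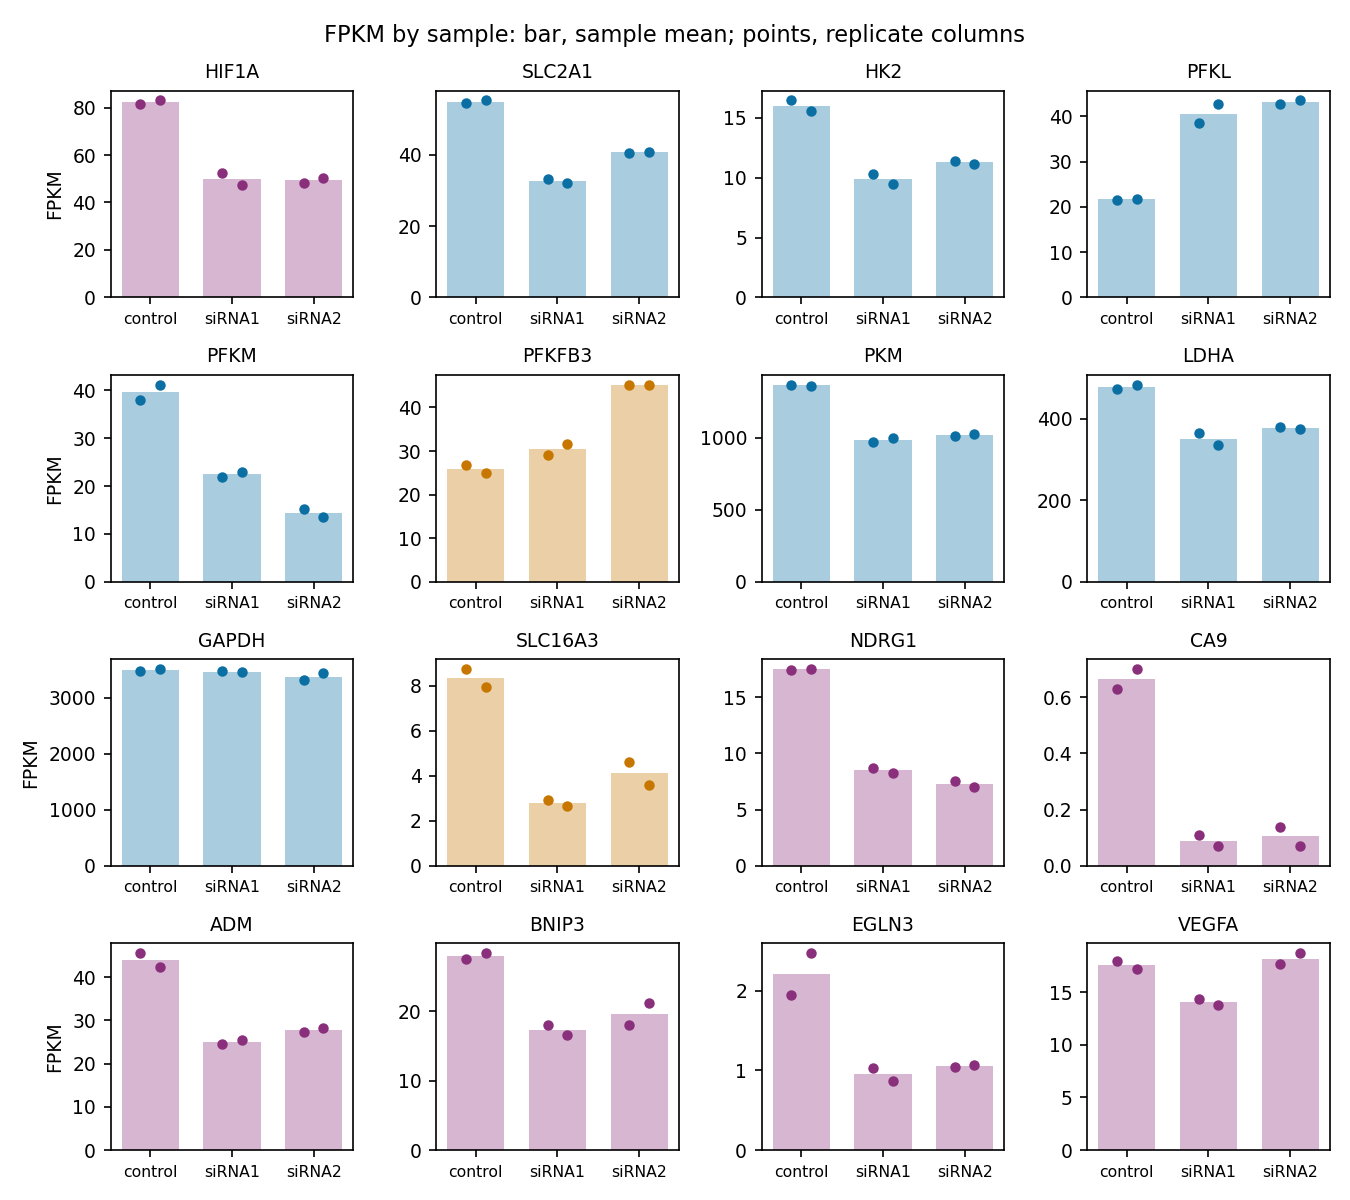
FPKM in the control and with each siRNA for 16 of the genes (bars are sample means, n = 1 each; points are the 2 replicate columns, and all axes start at 0). HIF1A reads 82.3, 49.9 and 49.3 FPKM, PFKL and NDRG1 are the genes past the test, GAPDH stays between 3377 and 3501 FPKM, and PFKFB3 and VEGFA differ between the siRNAs.

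The remaining hypoxia genes read within 1.3-fold of the control. VEGFA, the angiogenic growth factor and a classical HIF target, read 17.6 ± 0.580 FPKM in the control, 14.1 ± 0.453 with siRNA1 and 18.2 ± 0.735 with siRNA2, so only siRNA1 was below the control. The mitophagy receptor BNIP3L read 13.3, 14.1 and 11.0 FPKM, lower with siRNA2 only. The mTORC1 inhibitor DDIT4 read 35.7, 35.5 and 39.2 FPKM and the histone demethylase KDM3A 14.9, 16.6 and 16.0. The collagen prolyl hydroxylases read 17.0, 15.8 and 15.7 FPKM (P4HA1) and 20.6, 15.9 and 17.1 (P4HA2). EGLN1, the main oxygen sensor, read 9.37, 7.46 and 7.64 FPKM. Summed over the 14 genes, FPKM was 304 ± 1.80 in the control, 223 ± 5.59 with siRNA1 and 232 ± 3.71 with siRNA2, with HIF1A the most abundant.

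By size alone, 6 of the 34 lay a factor of 1.5 or more below the control on the log2(FPKM + 1) scale for each siRNA (PFKM, SLC16A3, NDRG1, HIF1A, ADM and EGLN3), against 4.60% of all genes. In FPKM itself, 12 were at least 20% below the control with both and 2 at least 25% above (PFKL and ANKRD37), against 13.2% and 12.5%. With the replicate columns as separate values, a fit whose spread is within samples only, 15 were lower and 2 higher with both siRNAs (limma, adjusted p under 0.05), against 18.6% and 21.8% of all genes. The 15 were SLC2A1, HK1, HK2, PFKM, PKM, LDHA, SLC16A3, PDK1, HIF1A, NDRG1, ADM, BNIP3, EGLN1, EGLN3 and P4HA2, and the 2 were PFKL and PFKFB3. In the authors' deposited table the DEGseq q-value was under 0.05 with both siRNAs for 20 lower and 5 higher genes of the 35, against 20.9% and 22.9% of the 15752 genes with both values.

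The siRNAs differed from each other in 16 of the 34 genes in the fit on replicate columns, where siRNA2 was above siRNA1 in 11 and below in 5; over all genes it was above in 19.4% and below in 21.1%. With 1 sample each this compares those samples, not the siRNAs. PFKFB3 was 1.48-fold above its siRNA1 level with siRNA2 (limma adjusted p = 4.34e-05). SLC16A3 was 1.46-fold above, VEGFA 1.29-fold (adjusted p = 7.93e-04) and SLC2A1 1.248-fold (adjusted p = 2.89e-04). PFKM with siRNA2 was 0.638 times its siRNA1 level (adjusted p = 5.63e-05) and PFKFB4 0.635 times. HIF1A was 0.988 times (adjusted p = 0.847), closer than any of the genes just named.

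**Figure D4:**
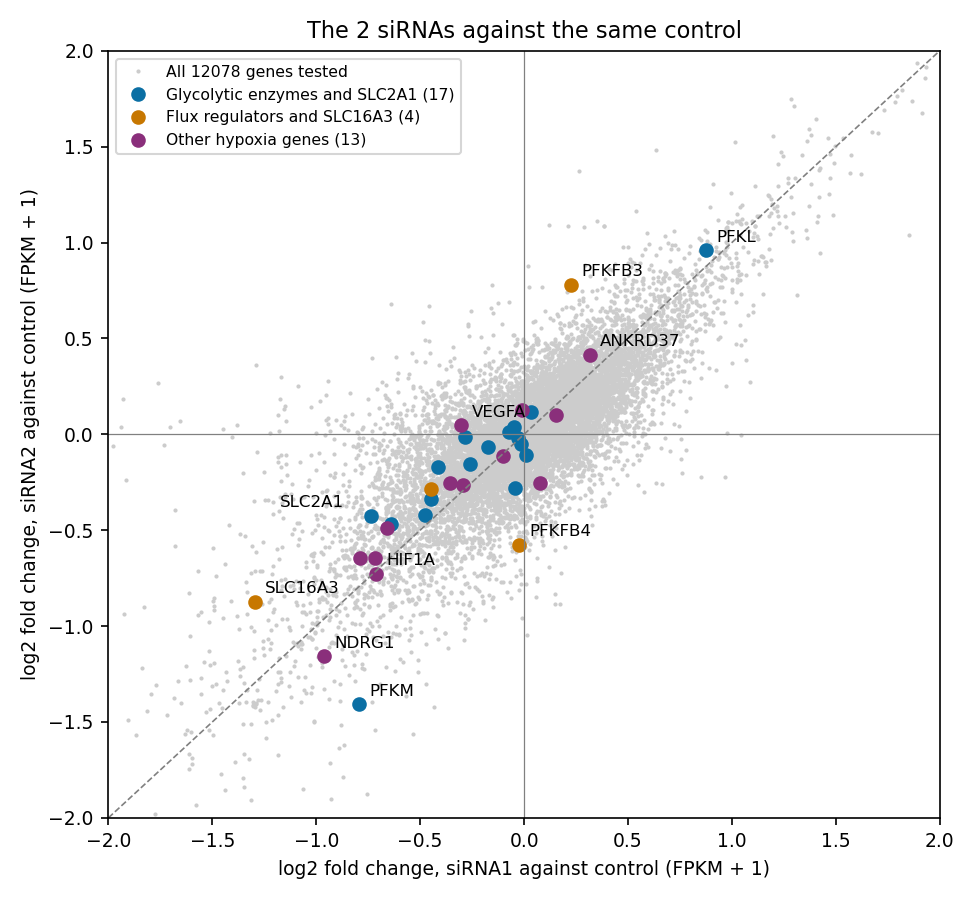
Log2 fold change on log2(FPKM + 1) with siRNA1 (x axis) and siRNA2 (y axis), both against the same control, for 12078 genes tested (gray) and the 34 glycolysis and hypoxia genes in color; 29 gray genes lie beyond the axes. PFKL lies at the upper right and NDRG1, PFKM and SLC16A3 at the lower left, while PFKFB3, PFKFB4 and VEGFA lie off the dashed line of equal change.

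Some of these genes carry a 7-base word in the 3' UTR that was singled out among lower genes with earlier results of these data. ACUCAGU was in a 3' UTR of 7 of the 34 genes (BNIP3, EGLN3, GAPDH, HK2, NDRG1, PDK1 and PFKM, by GENCODE v29), against 14.2% of all genes tested. The median log2 fold change was -0.57 over these 7 and -0.13 over the other 27, and over all genes -0.08 with the word and 0.03 without. Because the word was picked among lower genes of these same data, lower medians with it are built into that choice. They test nothing. UCGGAGA, a word singled out in the same way among higher genes, was in the 3' UTR of PFKFB3 alone of the 34, against 2.51% of all genes. The siRNA sequences are not used here, and the part of these words in the results was not tested. The other tested genes that read lower with both siRNAs do not hold ACUCAGU in an annotated 3' UTR. HIF1A, ADM, SLC2A1, SLC16A3, PKM and LDHA are among them. What part the word has in genes with or without it was not tested.

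Of 126 related genes on 7 lists, 121 had a value and 95 were tested. Of these, 4 fell and 3 rose, 7.37% in all, against 3.09% of all genes (1.67% lower and 1.42% higher). The lists were chosen with earlier results of these data known, which can by itself raise that share. All 7 calls were lost without the filter (limma adjusted p = 0.320 for each), where 0 of 17219 genes were called. They were also lost with quantile normalization (adjusted p = 0.0531 to 0.0896), where 12 genes were higher and 10 lower of 12078. The 3 higher calls, EGLN2, SIAH2 and PCK2, were also lost with a pseudocount of 0.1 (adjusted p = 0.0516, 0.0548 and 0.0507), and SIAH2 and PCK2 with median centring (adjusted p = 0.0525 and 0.0502). Median log2 fold changes over the 95 were -0.04 with siRNA1 and -0.01 with siRNA2. On the list of HIF subunits and oxygen sensing 1 of 14 tested genes fell and 2 rose. CITED2, which competes with HIF1A for the coactivators CBP and p300, fell from 13.5 ± 0.990 FPKM to 4.86 ± 0.212 and 4.43 ± 0.113 (log2 fold change -1.36 ± 0.18 SE, adjusted p = 0.0243). EGLN2 rose from 19.9 ± 0.403 FPKM to 36.8 ± 1.26 and 36.1 ± 0.262 (adjusted p = 0.0455), and SIAH2, a ubiquitin ligase that degrades HIF prolyl hydroxylases, from 19.6 ± 0.948 FPKM to 35.1 ± 0.382 and 35.8 ± 2.08 (adjusted p = 0.0483). The hydroxylase family was thus unequal: EGLN2 was higher with both siRNAs, EGLN1 and EGLN3 read lower. The dimer partner ARNT read 7.54 FPKM, 10.4 and 10.8 (adjusted p = 0.225), the paralog EPAS1 3.15, 2.09 and 2.07 (adjusted p = 0.243), and VHL 19.6, 21.1 and 18.5 (adjusted p = 0.986).

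Among 18 tested genes on the list of other glycolysis genes 1 fell and none rose, against 1.67% and 1.42% of all genes tested. At an unadjusted p under 0.05, 2 were lower and 2 higher, against 10.1% and 9.45%. BPGM, which makes 2,3-bisphosphoglycerate from a glycolytic intermediate, fell from 33.4 ± 0.12 FPKM to 17.0 ± 0.226 and 16.8 ± 0.198 (log2 fold change -0.95 ± 0.16 SE, adjusted p = 0.0382). ADPGK, an ADP-dependent glucokinase, read 33.3, 21.0 and 15.5 FPKM (adjusted p = 0.0997). MPC1, a subunit of the mitochondrial pyruvate carrier, read 21.7, 28.3 and 33.4 FPKM (adjusted p = 0.198). Of 3 tested gluconeogenesis genes, PCK2, the mitochondrial phosphoenolpyruvate carboxykinase, rose from 11.4 ± 0.262 FPKM to 21.6 ± 1.55 and 24.9 ± 0.325 (adjusted p = 0.0450). None of 9 pyruvate dehydrogenase genes and none of 7 pentose phosphate genes passed (0 and 1 at an unadjusted p under 0.05).

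Of 34 tested genes on the list of other hypoxia targets 1 fell and none rose, against 1.67% and 1.42% of all genes tested. At an unadjusted p under 0.05, 4 were lower and 2 higher, against 10.1% and 9.45%. The gene that fell was the heme oxygenase HMOX1, from 6.75 ± 0.771 FPKM to 2.30 ± 0.0990 and 2.70 ± 0.0283 (limma adjusted p = 0.0354). By direction 17 of the 34 read lower with both siRNAs and 9 higher, against 36.0% and 41.3% of all genes tested. The transferrin receptor TFRC read 179 FPKM, 113 and 86.8 (adjusted p = 0.0764) and BHLHE40, a repressor induced by hypoxia, 29.1, 23.3 and 20.3. ERO1A, an oxidase of protein folding, read 23.9, 30.7 and 32.1 FPKM. At low levels, the carbonic anhydrase CA12 read 1.19, 0.145 and 0.35 FPKM (adjusted p = 0.0792) and the lysyl oxidase LOXL2 1.31, 0.435 and 0.295 FPKM (adjusted p = 0.0793). HILPDA (9.46, 9.19 and 9.86 FPKM) and MIF (617, 610.3 and 598 FPKM) were close to the control; these 4 were named after their values were seen. On the list of growth signals that act on HIF, SIRT1, a deacetylase, fell to 2.56 ± 0.170 and 2.10 ± 0.0990 FPKM against 11.2 ± 0.283 in the control (adjusted p = 0.0210), the 1 call of 10 tested. MYC, which also drives glycolytic genes, read 69.5 ± 1.68 FPKM in the control, 26.8 ± 0.0141 with siRNA1 and 47.8 ± 0.509 with siRNA2 (adjusted p = 0.183), and the kinase AKT1 54.2, 86.0 and 94.3 FPKM (adjusted p = 0.0599).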

How the data were processed

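RNA sequencing of KYSE140 cells gave 1 deposited table. It holds, per the file headers, FPKM in 2 replicate columns with their mean per sample, as the authors computed them, with the authors' log2 fold changes, p-values and DEGseq q-values. Length of the longest transcript is a further column. Tools listed in the submitters' processing notes, with no roles or order, are RSEM 1.2.12, HISAT2 2.0.4, DESeq 3.4 and Bowtie2 2.2.5, and the build is hg19; strand settings are not given in the sources used here. FPKM is relative, so a gene that takes more reads lowers the others.

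Of 19280 lines, 14 without a gene ID and 2047 genes without values were left out. Of the per-sample columns, 2 share 1 heading and were not used; replicate column 1 of an siRNA sample was taken as 2 times the mean minus column 2. The control (1 sample) was compared with DLX5 siRNA (2 samples) on log2(FPKM + 1) by limma (3.58.1, R 4.3.3; variance prior fitted with a trend), for 12078 genes with at least 1 FPKM in 1 sample, Benjamini-Hochberg 0.05; the pipeline was tested on simulated data. This scale understates changes of low genes; folds named as FPKM ratios are of FPKM itself. p-values rest on the spread between the 2 siRNA samples and on the variance prior from all genes. That spread may be technical or hold differences between the siRNAs.

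Depth was estimated from low FPKM steps of short single-transcript genes. Named genes were those past the test, at least 20% lower or 25% higher in FPKM with both siRNAs, or HIF1A, SLC2A1, HK2, GAPDH and LDHA; other members are given by level. Of related genes, those past the test and up to 3 each way per list (mean FPKM of 5 or more) were eligible, and not all are given; LDHB, EPAS1, VHL, CA12, LOXL2, HILPDA and MIF were added after their values were seen. The members and lists were chosen with earlier results of these data known. Promoters are from RefSeq (GRCh38.p14), 3' UTRs from GENCODE v29. Alternatives are given in the closing section; the siRNA2 to siRNA1 comparison and the 3' UTR words were added after seeing the data.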

Additional observations from a re-analysis of the deposited data

How the results depend on the processing

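No paired analysis was possible because the groups share fewer than 2 replicate numbers. The control has 1 sample, so leaving it out leaves no comparison, and leaving out an siRNA sample leaves no residual degree of freedom; calls were not recounted then. Against 1 gene lower and 1 higher of the 34, there were 0 and 0 without the filter and 0 and 0 after quantile normalization. Over all genes, 0 of 17219 were called without the filter. After quantile normalization 10 were lower and 12 higher of 12078, against 202 and 171 in the main run. At an unadjusted p under 0.05 there were 2444 and 2313 genes in these 2 settings. At an adjusted p under 0.10, 7 of the 34 were lower and 1 higher (background 3.87% and 3.02%). With replicate columns as separate values 15 were lower and 2 higher (background 18.6% and 21.8%). Median centring and a pseudocount of 0.1 gave 1 and 1. Against 4 lower and 3 higher of the 95 related genes, there were 0 and 0 without the filter and after quantile normalization. With replicate columns 29 were lower and 16 higher, against 18.6% and 21.8% of all genes. Median centring gave 1 higher and a pseudocount of 0.1 gave 0 higher, and both gave 4 lower. The cause of these differences in calls was not tested. The count at least 1.5-fold lower with both siRNAs was 6 (background 4.60%), and 6 to 9 with 1 siRNA left out. The count higher was 1 (background 3.25%), and 1 to 2 with 1 siRNA left out. The share over all genes was not counted with 1 siRNA left out. The medians of the glycolytic genes (-0.19 to -0.11), flux regulators (-0.43 to -0.24) and other hypoxia genes (-0.31 to -0.25) kept their sign in every alternative run. Of 15 named and tested genes, none changed direction in any alternative. All 15 read the same way with both siRNAs, so leaving 1 siRNA out could not reverse any of them. The other runs rescale or refit the same values, so the unchanged directions are no independent check. With replicate columns, 11 of the 15 newly passed. FPKM values of CA9 and ANKRD37 are limited by depth.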
